A study of Capsicum annuum with 4 samples.

Results

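GLK2, SGR1 and PSY1 are pepper homologs of 3 tomato genes that act on the plastid while a fruit turns from green to red. They were taken by gene identifier from the list in which the study matched tomato ripening genes to pepper genes by protein similarity, and each of the 3 tomato names has a single pepper gene in the copy of the list used here. They make up 3 of the 35884 gene models in the deposited counts, and all 3 passed the filter on low counts. Transcript levels were measured by RNA-Seq in wild type Chiltepin (CH), the wild pepper Capsicum annuum var. glabriusculum, with 2 libraries of mature fruits at 68 days after anthesis (CH 68DAA) and 2 libraries of immature fruits at 20 days after anthesis (CH 20DAA). The plants grew in a greenhouse without any treatment, each library pooled the RNA of 6 whole fruits, seeds and placenta included, and separate collections of fruits gave the replicates of a stage. The names rest on similarity to tomato proteins and not on a test of function in pepper. In the RefSeq table of assembly UCD10Xv1.1, the cv. Zunla-1 homologs listed beside the 3 genes carry the synonyms GLK2 for GLK2, CaSGR and SGR for SGR1, and Psy and psy1 for PSY1.

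A green fruit carries chloroplasts, and in a ripening pepper or tomato these become chromoplasts, which lose chlorophyll and store carotenoids. GLK2 encodes a Golden2-like transcription factor that promotes chloroplast development in green tomato fruit. SGR1 encodes STAY-GREEN, a protein required for the breakdown of chlorophyll, and PSY1 encodes the phytoene synthase that makes the first dedicated product of the carotenoid pathway in fruit.

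The counts on genes added up to between 12139415 and 26130664 per library, with the lowest depth in replicate 1 at 68 DAA, and 31.7% to 38.2% of the entries fell in categories that name no gene. Levels are given in CPM, the counts scaled to the TMM-normalized size of each library. The quasi-likelihood test of edgeR was applied to 17160 genes, and a gene was called when its false discovery rate (FDR) was under 0.01 and its level differed by 4-fold or more. By this rule GLK2 was lower at 68 DAA, as were 18.7% of all tested genes, while SGR1 and PSY1 were higher at 68 DAA, as were 8.22% of all tested genes. The libraries of the stages did not overlap for any of the 3 genes, which also held for 87.1% of all tested genes (45.3% with the mature libraries lower and 41.8% with them higher). The whole fruit was sequenced, so fewer cells of a type and less RNA per cell cannot be told apart, and the label of the tissue was not checked against markers of pericarp, placenta or seed because the sources used here do not name such genes by these identifiers.

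GLK2 fell to almost no transcript in mature fruits. GLK2 (CA.PGAv.1.6.scaffold782.26) had 4 and 5 counts in replicates 1 and 2 at 68 DAA, against 3435 and 3407 counts at 20 DAA. Its normalized level was 0.344 and 0.221 CPM at 68 DAA, against 128 and 146 CPM at 20 DAA. Both mature libraries were thus far below both immature libraries, and the nearest libraries of the stages were 372-fold apart. The mean was 0.282 ± 0.0867 CPM at 68 DAA and 137 ± 12.7 CPM at 20 DAA (SD, n = 2 each). The fitted level was 507-fold lower at 68 DAA, a log2 fold change of -8.99 with a standard error of 0.33 from the scatter of the replicates (adjusted p = 7.43e-06 by edgeR with Benjamini-Hochberg adjustment).

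The size of the GLK2 decrease is limited by the few counts left in mature fruits. A count of 4 has an exact 95% Poisson interval from 1.09 to 10.2, and a count of 5 has an interval from 1.62 to 11.7. The summed counts were 9 at 68 DAA and 6842 at 20 DAA, which gives a level 519-fold lower at 68 DAA with an exact conditional 95% interval from 273-fold to 1135-fold. These intervals cover counting error only. Even their low end is larger than the difference between replicates, which was 1.55-fold at 68 DAA and 1.14-fold at 20 DAA.

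SGR1 rose to become one of the most abundant transcripts of mature fruits. SGR1 (CA.PGAv.1.6.scaffold981.58) had 44666 and 113841 counts at 68 DAA, against 416 and 459 counts at 20 DAA. Its normalized level was 3837 and 5032 CPM at 68 DAA, against 15.5 and 19.7 CPM at 20 DAA. The nearest libraries of the stages were 195-fold apart, while the replicates differed by 1.31-fold at 68 DAA and by 1.27-fold at 20 DAA. The mean was 4435 ± 845 CPM at 68 DAA and 17.6 ± 2.94 CPM at 20 DAA (SD, n = 2 each). The fitted level was 253-fold higher at 68 DAA, a log2 fold change of 7.98 with a standard error of 0.26 (adjusted p = 1.69e-05 by edgeR with Benjamini-Hochberg adjustment). The summed counts gave a 266-fold higher level, with an exact conditional 95% interval from 248-fold to 284-fold for counting error only.

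PSY1 rose as well, and its CPM values in immature fruits overlapped those of SGR1. PSY1 (CA.PGAv.1.6.scaffold404.3) had 11727 and 34431 counts at 68 DAA, against 428 and 395 counts at 20 DAA. Its normalized level was 1007 and 1522 CPM at 68 DAA, against 15.9 and 16.9 CPM at 20 DAA. The mature libraries were again above the immature ones, with 59.6-fold between the nearest of them. The mean was 1265 ± 364 CPM at 68 DAA and 16.4 ± 0.691 CPM at 20 DAA (SD, n = 2 each). The fitted level was 77.0-fold higher at 68 DAA, a log2 fold change of 6.27 with a standard error of 0.30 (adjusted p = 2.15e-05 by edgeR with Benjamini-Hochberg adjustment). The summed counts gave an 82.2-fold higher level (exact conditional 95% interval from 76.7-fold to 88.2-fold, counting error only).

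**Figure D1:**
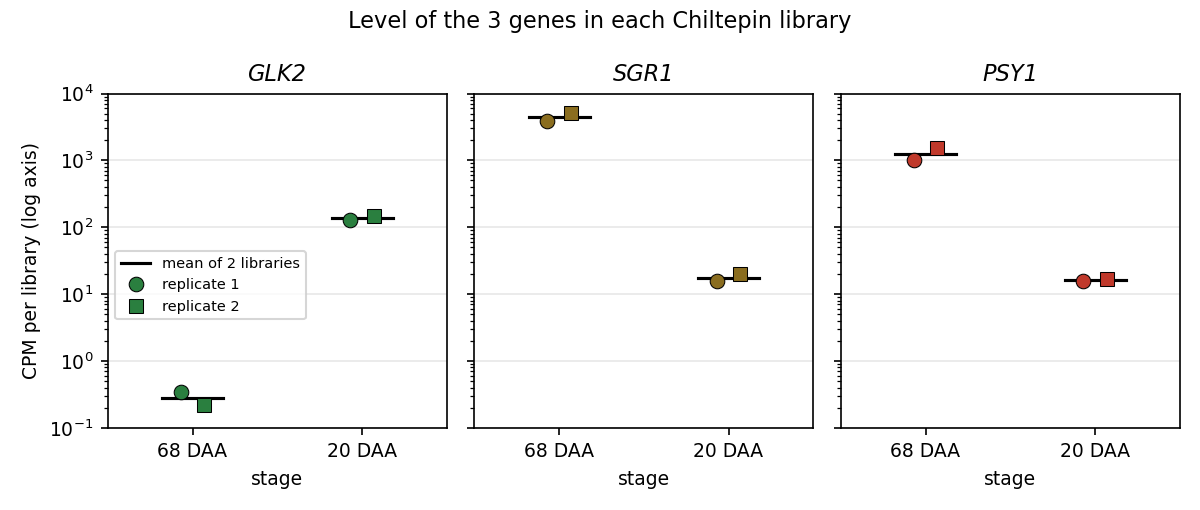
Level of GLK2, SGR1 and PSY1 in each Chiltepin library, in CPM on a log axis, with 68 DAA left of 20 DAA. Circles are replicate 1, squares are replicate 2 and bars are the means of 2 libraries. GLK2 is at 0.344 CPM or less in both mature libraries, while SGR1 and PSY1 are at 1007 CPM or more there and between 15.5 and 19.7 CPM in the immature libraries.

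In CPM, the replicates of mature fruits differed more than those of immature fruits for all 3 genes, though for SGR1 only by 1.31-fold against 1.27-fold. For GLK2 the difference rests on 4 and 5 counts at 68 DAA, which counting error alone could give. At 68 DAA, replicate 2 was above replicate 1 in CPM for SGR1 and for PSY1, and below it for GLK2. The replicates of PSY1 differed by 1.51-fold at 68 DAA, a difference that 17.8% of all tested genes reached or exceeded, and by 1.06-fold at 20 DAA. The median difference between replicates over all tested genes was 1.18-fold at 68 DAA and 1.09-fold at 20 DAA. With replicate 1 at 68 DAA left out, the log2 fold change of PSY1 was 6.60, and with replicate 2 at 68 DAA left out it was 5.97.

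The 3 genes crossed the range of expression between the stages. GLK2 was at or above 5.75% of all tested genes in mean CPM at 68 DAA and at or above 93.4% of them at 20 DAA. The filter on low counts used the average over the 4 libraries, and GLK2 passed it only through its immature libraries. Its low position at 68 DAA among the tested genes is therefore partly set by the filter. SGR1 was at or above 99.9% of the tested genes at 68 DAA and 45.1% at 20 DAA, and PSY1 at or above 99.6% at 68 DAA and 43.2% at 20 DAA. These changes were large among all genes, but many genes changed more. Of the 8822 tested genes with a lower fitted level at 68 DAA, 463 had a larger decrease than GLK2. Of the 8338 tested genes with a higher fitted level at 68 DAA, 252 had a larger increase than SGR1 and 387 had a larger increase than PSY1.

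**Figure D2:**
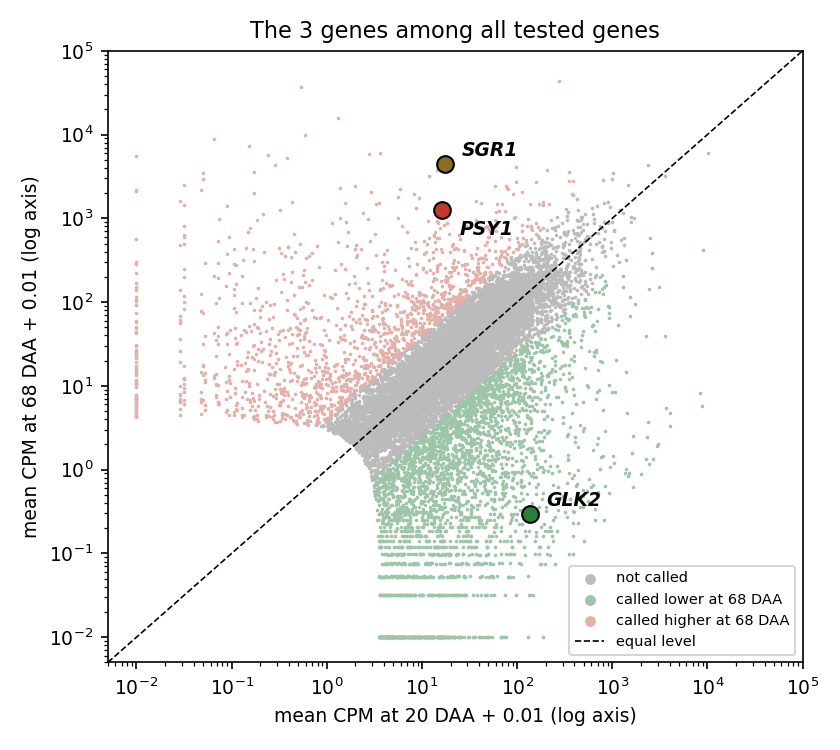
Mean CPM at 68 DAA (vertical axis) against mean CPM at 20 DAA (horizontal axis) of the 17160 tested genes, both on log axes after adding 0.01 CPM, with genes called lower, called higher and not called in different colours. GLK2 lies far below the dashed line of equal level, SGR1 and PSY1 lie far above it, and genes with larger changes lie beyond them on both sides.

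Levels were compared between the genes in TPM, in which counts are divided by the coding length of each gene model and scaled to the same total per library. In mature fruits the order was SGR1, PSY1 and GLK2, and in immature fruits it was GLK2, SGR1 and PSY1. SGR1 had 3957 and 4653 TPM at 68 DAA, against 18.9 and 23.8 TPM at 20 DAA. PSY1 had 661 and 895 TPM at 68 DAA, against 12.3 and 13.0 TPM at 20 DAA. GLK2 had 0.302 and 0.174 TPM at 68 DAA, against 133 and 151 TPM at 20 DAA. In TPM the genes next to each other in these orders did not overlap at either stage, while in CPM, where length is not considered, SGR1 and PSY1 overlapped at 20 DAA. Among all 35884 gene models, SGR1 ranked 20 and 19 in TPM in replicates 1 and 2 at 68 DAA, and PSY1 ranked 158 and 117. GLK2 ranked 18643 and 19383 at 68 DAA, where 22086 and 23121 models had a count, and 1284 and 1097 at 20 DAA.

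The largest share of the 3 transcripts together went from GLK2 in immature fruits to SGR1 in mature fruits. Of their summed TPM, SGR1 made up 85.7% and 83.9% in mature fruits at 68 DAA, against 11.5% and 12.7% at 20 DAA. PSY1 made up 14.3% and 16.1% at 68 DAA, against 7.52% and 6.94% at 20 DAA. GLK2 made up 0.00655% and 0.00314% at 68 DAA, against 81.0% and 80.4% at 20 DAA. In immature fruits GLK2 was therefore the main transcript of the 3, at 7.04 and 6.33 times the TPM of SGR1 and at 10.8 and 11.6 times the TPM of PSY1.

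SGR1 increased by a larger factor than PSY1 in these libraries. The ratio of SGR1 to PSY1 in TPM was 5.99 and 5.20 at 68 DAA, against 1.53 and 1.83 at 20 DAA. The ratios of the stages did not overlap, and the mean log2 ratio was higher at 68 DAA by 1.74 (standard error 0.16), or 3.34-fold. An exact two-sided permutation test of this difference gave p = 0.333, the smallest p that 2 libraries against 2 allow, so the difference exceeds the spread of the replicates but cannot pass a threshold in this design. With each library left out in turn the difference ranged from 1.61 to 1.87.

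The 3 genes lie on different chromosomes of the reference, cv. CM334 version 1.6, and all are on the plus strand. GLK2 is on chromosome 10 from 8848419 to 8854274, with 6 exons, 939 coding bases and introns of 694 to 1314 bases. SGR1 is on chromosome 1 from 7485246 to 7488186, with 4 exons, 801 coding bases and introns of 136 to 1361 bases. PSY1 is on chromosome 4 from 9791332 to 9794175, with 6 exons, 1260 coding bases and introns of 96 to 649 bases. The coding part takes 16.0% of the span of GLK2, 27.2% of that of SGR1 and 44.3% of that of PSY1. In the deposited annotation the exons and the coding intervals of all 35884 models are the same, so the models hold no UTRs, and reads that lie wholly in a UTR were not counted for these genes.

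**Figure D3:**
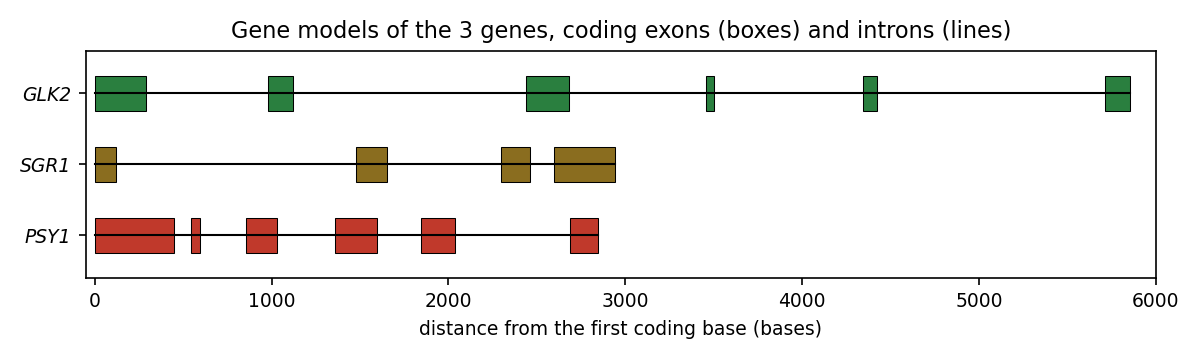
Gene models of GLK2, SGR1 and PSY1 in the deposited annotation, drawn to scale from the first coding base, with boxes for coding exons and lines for introns. The span is 5856 bases for GLK2, 2941 bases for SGR1 and 2844 bases for PSY1, and GLK2 has the smallest coding share.

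Most genes around the 3 loci were not called. Of the 5 gene models on each side of each gene, 30 in all, 15 were tested and 2 of these were called (13.3%), against 26.9% of all tested genes. Both called neighbours lie beside PSY1 and were lower at 68 DAA, the direction opposite to that of PSY1. The nearest gene model to SGR1 starts 995 bases downstream on the same strand and had 6 counts at 68 DAA and 0 at 20 DAA in all. The nearest to GLK2 is 6998 bases downstream on the same strand, and its log2 fold change of -0.48 was not called.

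The copy of the list used here, which is shorter than the set of homologs the study describes, holds 35 other pepper genes, of which 29 were tested. Of these, 4 were higher and 7 were lower at 68 DAA (37.9%, against 26.9% of all tested genes), and their median log2 fold change was 0.37, against -0.04 over all tested genes. The 6 genes that were not tested had at most 144 counts each over the 4 libraries. The study chose the tomato genes for their part in fruit development and ripening, so the list is not a random sample of genes, and the shares below hold for this copy alone.

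Lutescent 2 is the other gene of the list that was grouped here under the plastid, a chloroplast protease required for chloroplast development in tomato. Whether listed genes grouped under other roles also act in the plastid was not examined. It had 32.1 and 40.5 CPM at 68 DAA, against 21.6 and 19.4 CPM at 20 DAA. Its log2 fold change of 0.83 (adjusted p = 0.00427 by edgeR) passed the FDR limit but stayed under 4-fold. Scaled by library totals, the log2 fold change was 0.56 and missed the FDR limit (adjusted p = 0.0132 by edgeR). With each library left out in turn it ranged from 0.67 to 1.05. GLK2 and Lutescent 2, both tied to chloroplast development in tomato, thus had fitted changes of opposite sign, and the difference between them was not tested.

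Of the 12 ripening regulators on the list, 11 were tested, 3 rose and 4 fell (63.6% called, against 26.9% of all tested genes). The roles were assigned with earlier results of these data known, so the shares by role only describe these genes. The genes that rose with SGR1 and PSY1 were the copies of MADS-RIN, the MADS-box regulator that tomato fruits need to ripen, and FUL1, a FRUITFULL-like partner of RIN in tomato. MADS-RIN (CA.PGAv.1.6.scaffold1021.30) had 2100 and 1968 CPM at 68 DAA, against 2.53 and 3.21 CPM at 20 DAA, a log2 fold change of 9.47. The other copy of MADS-RIN (CA.PGAv.1.6.scaffold1091.1) had 90.7 and 44.9 CPM at 68 DAA, against 2.94 and 3.81 CPM at 20 DAA, a log2 fold change of 4.32. How reads that align to both copies of MADS-RIN were treated was not examined here, so their separate values are uncertain. FUL1 (CA.PGAv.1.6.scaffold587.54) had 1047 and 869 CPM at 68 DAA, against 32.2 and 42.3 CPM at 20 DAA, a log2 fold change of 4.68. All 3 were called, with adjusted p-values by edgeR of 7.43e-06, 0.000246 and 2.44e-05.

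The regulators that fell with GLK2 were LeSPL-CNR, FUL2, ARF4 and MADS-box protein 1. LeSPL-CNR, the SBP-box factor of the Colorless non-ripening locus of tomato, had 0.773 and 0.265 CPM at 68 DAA, against 64.8 and 75.1 CPM at 20 DAA, a log2 fold change of -7.27. It rests on 9 and 6 counts at 68 DAA, and the log2 fold change was -7.95 without replicate 1 and -6.46 without replicate 2 of that stage. FUL2, another FRUITFULL-like MADS-box protein, had 3.01 and 3.23 CPM at 68 DAA, against 75.9 and 86.2 CPM at 20 DAA, a log2 fold change of -4.69. ARF4 is an auxin response factor whose down-regulation gives dark green fruit in tomato. It had 3.35 and 3.23 CPM at 68 DAA, against 65.6 and 70.5 CPM at 20 DAA, a log2 fold change of -4.37. MADS-box protein 1 had 16.0 and 15.6 CPM at 68 DAA, against 137 and 132 CPM at 20 DAA, a log2 fold change of -3.09. None of the 4 overlapped between the stages, as for 87.1% of all tested genes (45.3% with the mature libraries lower), and their adjusted p-values by edgeR lay between 7.97e-06 and 1.88e-05.

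The remaining regulators were not called. Without the limit of 4-fold, 25.7% of all tested genes were higher and 32% were lower at the same FDR. TAGL1, a MADS-box protein of tomato fruit expansion and ripening, had 389 and 386 CPM at 68 DAA, against 151 and 164 CPM at 20 DAA. Its log2 fold change of 1.30 (adjusted p = 0.000272 by edgeR) was under 4-fold. The paper also reports a copy of TAGL1 as downregulated in mature Chiltepin, and the list used here holds no TAGL1 entry that fell. SlDML2, a DNA demethylase that tomato requires for ripening, had 344 and 357 CPM at 68 DAA, against 204 and 188 CPM at 20 DAA, also under 4-fold (log2 fold change 0.84, adjusted p = 0.00160 by edgeR). NAC1, a NAC-domain factor, and ERF6, an ethylene response factor linked to carotenoid accumulation in tomato, missed the FDR limit. NAC1 had 5.58 and 4.95 CPM at 68 DAA, against 1.86 and 2.70 CPM at 20 DAA (log2 fold change 1.21, adjusted p = 0.0114 by edgeR). ERF6 had 89.7 and 97.4 CPM at 68 DAA, against 70.1 and 73.6 CPM at 20 DAA (log2 fold change 0.38, adjusted p = 0.0198 by edgeR). AP2, a negative regulator of ripening in tomato, was not tested, with no count in mature fruits and 5 and 2 counts in immature fruits.

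Among the other roles, 0 of the 6 tested genes grouped here under ethylene and its precursor were called by edgeR, against 26.9% of all tested genes. By the same test, 3 of the 6 had an unadjusted p under 0.05. Of these, ETR4, an ethylene receptor, and spdsyn, a spermidine synthase, passed the FDR limit and were lower at 68 DAA by less than 4-fold, with log2 fold changes of -1.31 and -1.15 (adjusted p = 0.00158 and 0.000437 by edgeR). The log2 fold changes of the 6 genes by edgeR lay between -1.31 and 0.37, far from those of GLK2, SGR1 and PSY1. A call needs a 4-fold change, so no p-value could give a call at this size. The likelihood ratio test, DESeq2 and limma-voom also called 0 of the 6 genes. They used the same counts and the same fold limit, so this is not a separate check. This group holds several entries of TCTR1 and no ACC oxidase, so it does not stand for ethylene genes at large. The paper reports the ACC oxidase genes ACCO1, ACCO2 and ACO3 as downregulated in mature Chiltepin. Of the 4 tested cell wall and glycan genes, 2 were called, against 26.9% of all tested genes. PG2, a polygalacturonase that cuts pectin, was higher at 68 DAA, with 103119 and 201559 counts against 3 and 0 counts at 20 DAA. Alpha-mannosidase, an enzyme of glycan processing, was lower at 68 DAA, with 25.6 and 27.1 CPM against 234 and 182 CPM at 20 DAA. XTH5, a xyloglucan endotransglucosylase/hydrolase, was higher and Beta-hex, another enzyme of glycan processing, was lower at 68 DAA, both past the FDR limit but under 4-fold (log2 fold changes 1.29 and -1.23). Of the 7 tested genes of aroma and metabolism, TomloxC (CA.PGAv.1.6.scaffold649.19) and NSGT1 were called, both lower at 68 DAA. This is a share of 28.6%, close to the 26.9% of all tested genes.

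**Figure D4:**
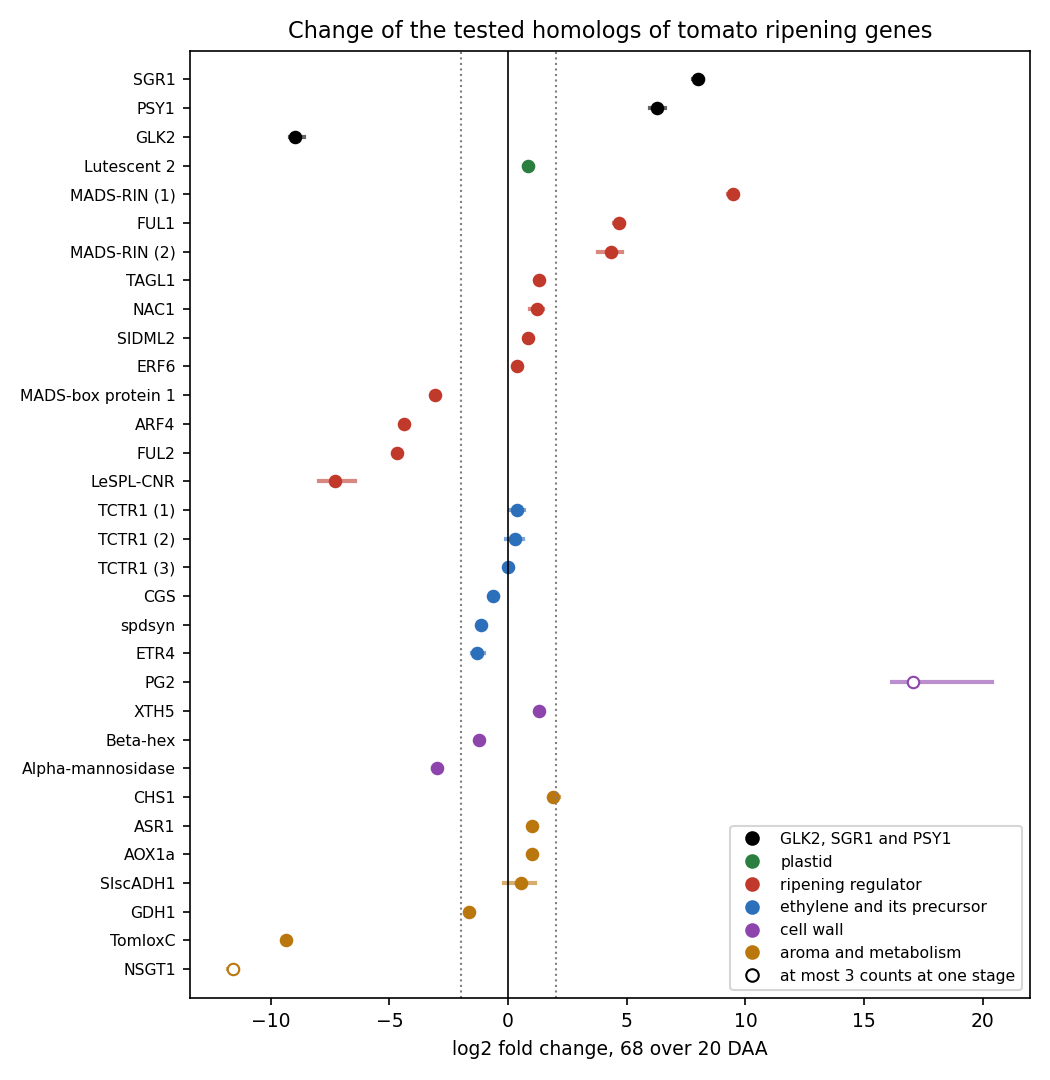
Fitted log2 fold change at 68 over 20 DAA of GLK2, SGR1, PSY1 and the 29 other tested homologs of tomato ripening genes, coloured by role. Lines span the values with each library left out in turn, dotted lines mark a 4-fold change, and open circles are genes with at most 3 counts in each library of a stage, whose fitted change depends on the prior count. GLK2 is at -8.99, SGR1 at 7.98 and PSY1 at 6.27, and for all 3 the lines stay far outside the dotted limits.

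The likeness of other genes to the 3 genes was described by the distance between log2 CPM values, with each gene centred on its mean over the 4 libraries. A distance of 0 is the same pattern, and with 4 libraries in 2 stages it mainly follows the size and sign of the change. On the list, the gene nearest to GLK2 was TomloxC (CA.PGAv.1.6.scaffold649.19), a lipoxygenase of volatile synthesis, at a distance of 0.83. It had 2.58 and 2.43 CPM at 68 DAA, against 1525 and 1754 CPM at 20 DAA. NSGT1, a glycosyltransferase of volatile glycosides, followed at 0.98, with 0 counts in both libraries at 68 DAA and 16.3 and 20.4 CPM at 20 DAA. The gene nearest to SGR1 was MADS-RIN (CA.PGAv.1.6.scaffold1021.30) at a distance of 1.501, and PSY1 followed at 1.76. The gene nearest to PSY1 was FUL1 at 1.67, followed by SGR1 at 1.76.

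Many unnamed genes were nearer than these. Among all tested genes, 90 were nearer to GLK2 than TomloxC, 160 were nearer to SGR1 than MADS-RIN, and 336 were nearer to PSY1 than FUL1. The nearest to GLK2 were CA.PGAv.1.6.scaffold100.13 at a distance of 0.073, with a mean of 0.217 CPM at 68 DAA and 112 CPM at 20 DAA, and CA.PGAv.1.6.scaffold206.80 at 0.13, with a mean of 0.0651 CPM at 68 DAA and 55.8 CPM at 20 DAA. The nearest to SGR1 was CA.PGAv.1.6.scaffold124.5 at 0.20, with a mean of 93.0 CPM at 68 DAA and 0.243 CPM at 20 DAA. The nearest to PSY1 was CA.PGAv.1.6.scaffold1140.2 at 0.083, with a mean of 6.93 CPM at 68 DAA and no count at 20 DAA. That last distance is set by the prior count, which gives the gene its value at 20 DAA, and with a prior count of 0.5 another gene, CA.PGAv.1.6.scaffold553.2, was nearest at 0.16. The low levels of CA.PGAv.1.6.scaffold206.80 at 68 DAA and CA.PGAv.1.6.scaffold124.5 at 20 DAA make their distances depend on the prior count too. With a prior count of 0.5 other genes took their places. SGR1 and PSY1 were thus not each other's nearest genes, although both rose.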

How the data were processed

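The authors deposited a file of raw, unnormalized counts for each of the 4 libraries, and the gene models. Reads had been trimmed with Trimmomatic 0.36, aligned to cv. CM334 version 1.6 with HISAT2 2.1.0 and counted with HTSeq 0.11.0 in union mode. The methods name CM334 and the results section of the paper names cv. Zunla-1, and the identifiers are those of CM334. Whether the counting used strand is not given in the sources used here, so reads of an antisense gene could not be told apart.

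Counts were analysed with edgeR 4.0.16 in R 4.3.3. Entries that name no gene were left out, libraries were scaled by TMM, and the quasi-likelihood test (prior count 0.125) was run on genes whose average log2 CPM was 1 or more, with Benjamini-Hochberg adjustment over all tested genes. Calls needed an FDR under 0.01 and a 4-fold change. The procedure was tested on simulated data. Standard errors are the scatter of log2 CPM between the 2 libraries of each stage and may be smaller than counting error for low counts. TPM used the coding length of the gene models, distances used log2 CPM with a prior count of 2, and intervals are exact with 95% confidence. With 2 libraries per stage, an exact two-sided permutation test cannot go below p = 0.333. Ratios and positions used scipy 1.17.1, pandas 2.3.3 and numpy 2.4.6 in Python 3.11.15, and figures used matplotlib 3.10.9.

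The text names GLK2, SGR1 and PSY1, every listed homolog with a plastid or ripening regulator role, the called genes of other roles, and, for likeness, the nearest 2 listed genes of each and the nearest unnamed genes (2 for GLK2, 1 each for SGR1 and PSY1). ETR4, spdsyn, XTH5, Beta-hex and CA.PGAv.1.6.scaffold553.2 fall outside this rule and were chosen after their values were seen. Names came from a copy of the study's list that holds 38 pepper genes for 31 tomato names and is shorter than the set the paper describes, and 34 of the 38 had a Zunla-1 homolog in the RefSeq table. The genes, the lists and the roles were chosen with earlier results of these data known. Alternatives were other normalizations, filters, limits and prior counts, the likelihood ratio test, limma-voom with limma 3.58.1, DESeq2 1.42.0, a test against a 4-fold change, thinned libraries, a block for the replicate number, and leaving out each library in turn. Promoter and protein sequences were not used here, and the Serrano libraries were not analysed here.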

Additional observations from a re-analysis of the deposited data

How the results depend on the processing

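GLK2, SGR1 and PSY1 kept their direction and their call in all 19 alternatives. The alternatives with a looser fold or FDR limit reused the main fit, so no call could be lost in them. The log2 fold change ranged from -9.27 to -8.58 for GLK2, from 7.71 to 8.23 for SGR1 and from 5.97 to 6.60 for PSY1. With each library left out in turn it ranged from -9.17 to -8.59 for GLK2, from 7.79 to 8.23 for SGR1 and from 5.97 to 6.60 for PSY1, and a stage left with 1 library was assumed to vary like the other stage. The highest adjusted p of the 3 genes over the alternatives was 0.00053, without replicate 2 at 20 DAA. Scaling by library totals moved the median log2 fold change of all tested genes to -0.31, against -0.04 with TMM, and GLK2 was then at -9.27, SGR1 at 7.71 and PSY1 at 5.99.

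Counts depended on the fold limit by construction. With a limit of 2-fold, 3007 of all tested genes were higher and 4622 lower, and of the other listed homologs 9 were higher and 11 lower. With no fold limit, 4415 of all tested genes were higher and 5489 lower, and of the other listed homologs 11 were higher and 11 lower. With each library left out in turn, 1331 to 1443 of all tested genes were higher and 2820 to 3469 lower, and 4 to 5 of the other listed homologs were higher. With a prior count of 0.5 the distance from GLK2 to TomloxC was 0.62, against 0.83 with a prior count of 2, and TomloxC, MADS-RIN and FUL1 were again the nearest listed genes to GLK2, SGR1 and PSY1. The nearest unnamed genes to SGR1 and PSY1 were then others, and CA.PGAv.1.6.scaffold206.80 was no longer among the nearest 2 to GLK2. The difference in the log2 ratio of SGR1 to PSY1 was 1.78 with a pseudocount of 1 TPM and 1.74 from CPM. Gene length and library scaling cancel in this difference, so the value from CPM could not differ from that in TPM. The annotation gives the same exonic and coding length, so these could not give separate values.

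The labels do not say that a replicate number marks a shared batch. The correlation over all tested genes of the deviations of same-numbered libraries was 0.025. With 2 libraries per stage this value cannot tell whether same-numbered libraries shared a batch. With the replicate number as a block, 1428 of all tested genes were higher and 3237 lower, and the log2 fold changes were -9.01 for GLK2, 7.98 for SGR1 and 6.24 for PSY1. The depth limits GLK2 most, with 9 counts in all at 68 DAA, and 2 libraries per stage limit the precision of every change.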
